A study of Atriplex lentiformis with 9 samples.

Results

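ZIP1, ZIP4 and ZTP50 are the entries of the ZIP family of metal transporters that were followed here in roots of quailbush (Atriplex lentiformis), a salt-tolerant shrub planted on mine waste. They were chosen by name, with earlier results of these data known, and they are 3 of 5164 entries. An entry carries the name of an Arabidopsis protein and stands for the quailbush transcripts assigned to it, so the reads of close relatives may be shared or split between entries. Roots were taken from plants grown for 11 weeks in mine tailings mixed with 10% compost (TC10), 15% compost (TC15) or 20% compost (TC20). All plants grew in tailings, and no root from uncontaminated soil was compared. Expression was read in 8 libraries from separate plants: TC10 gave 2, TC15 gave 3 and TC20 gave 3. The file titled TC10 plant 5 was left out, because its header names TC15 plant 6 and its 4995 values are all those of TC15 plant 6.

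ZIP proteins carry zinc, and in some members iron or manganese, across a membrane into the cytosol. In Arabidopsis the family supplies roots with zinc, and the basic leucine zipper factors bZIP19 and bZIP23 sense the zinc of the cell and switch on several family members when zinc runs short. ZIP4 is one of these targets in Arabidopsis. ZIP1 moves zinc too and has been placed at the vacuolar membrane of Arabidopsis root cells. ZTP50 is a putative zinc transporter of the family with little known about its role.

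The values are reads that the authors scaled by 1 factor per library, called normalised reads below. The libraries held 3030394 to 4752637 reads, and TC10 plant 2 and TC20 plant 9 were least like the rest, with a median Spearman correlation of 0.946 and 0.944 with the other libraries, against 0.953 to 0.973 for the remaining 6. Of 11 root markers searched, 5 had an entry: SCR, SHR, PHO1, MYB36 and SKOR. CASP1 to CASP5 of the Casparian strip and HKT1 had none. Their summed level was 1933 to 4191 normalised reads in TC10, 1760.3 to 4739 in TC15 and 2714 to 6292 in TC20. None of 14 green-tissue markers searched had an entry. SCR was the lowest of the root markers, at 2.80 to 15.4 normalised reads. The marker sums of the composts overlapped, and their part in the results below was not tested. The labels number separate plants but do not say how they were grown apart. The tests thus judge differences against the spread between these plants, and replication of a compost above the plant cannot be assessed.

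ZIP4 was the member that set TC20 apart. It had 92.4 normalised reads in TC10 plant 2 and 108 in plant 4. In TC15 it had 104 in plant 2, 103 in plant 6 and 67.9 in plant 10, and in TC20 198 in plant 3, 443 in plant 5 and 191 in plant 9. Each TC20 library was thus above each of the other 5, and the lowest TC20 value was 1.77-fold above the highest value elsewhere. Mean and SD were 100.2 ± 10.9 for the 2 TC10 libraries, 91.6 ± 20.5 for the 3 of TC15 and 277 ± 144 for the 3 of TC20. In order of level, TC15 and TC10 were next to each other and did not differ beyond their spread. TC20 was 2.77-fold above TC10 and 3.03-fold above TC15 as a ratio of means. In bulk roots, fewer cells of a type and less RNA per cell cannot be told apart. The root marker sum was 6292 in TC20 plant 5 (of which PHO1 4692), 2714 in TC20 plant 9, 4191 in TC10 plant 4 and 4739 in TC15 plant 10. Whether these sums bear on the ZIP4 levels was not tested.

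These levels rest on 77 to 112 reads per library in TC10 and TC15 and on 176 to 507 in TC20. The exact Poisson 95% interval of TC20 plant 9, the lowest of its compost, ran from 164 to 222 normalised reads, and that of TC10 plant 4, the highest elsewhere, from 88.8 to 129.8. The intervals do not meet, although they cover counting error only. The spread between TC20 plants was wider than counting error: the coefficient of variation was 51.8%, where counting alone gives 6.53%. Plant 5 stood above the others, and plants 3 and 9 lay within each other's counting intervals.

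**Figure D1:**
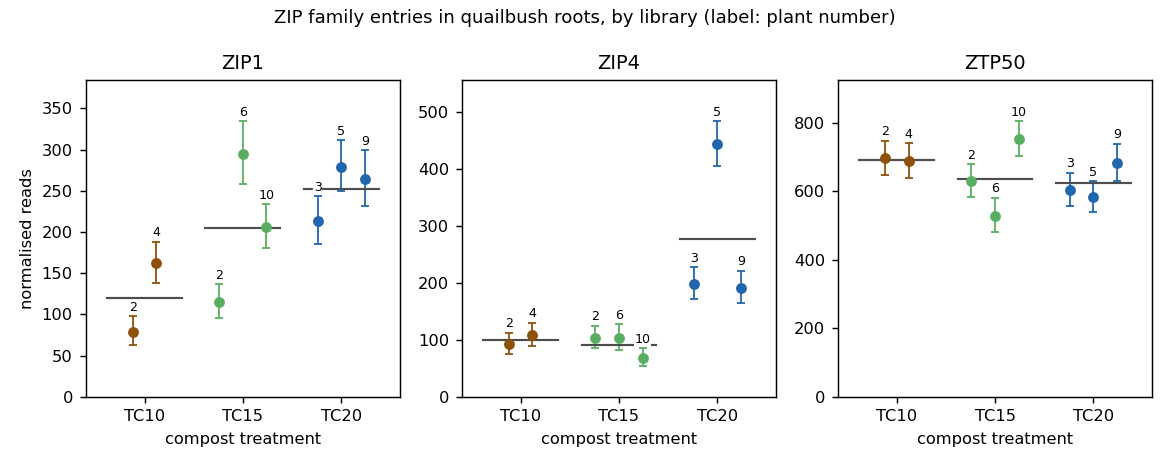
Normalised reads of ZIP1, ZIP4 and ZTP50 (y axis, from 0) in each library by compost (x axis); each point is 1 library with its plant number, error bars are exact Poisson 95% intervals of its reads, and horizontal lines are compost means. The 3 TC20 points of ZIP4 (191 to 443) lie above all others (67.9 to 108), while ZIP1 and ZTP50 overlap between composts in most pairs.

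ZIP1 differed less clearly between composts than ZIP4. Its plants varied more than those of ZIP4 in TC10 and TC15, and less in TC20. The coefficient of variation was 48.6%, 43.9% and 13.8% for ZIP1 in TC10, TC15 and TC20, against 10.9%, 22.3% and 51.8% for ZIP4. ZIP1 had 79.1 normalised reads in TC10 plant 2 and 162 in plant 4. In TC15 it had 115 in plant 2, 295 in plant 6 and 206 in plant 10, and in TC20 213 in plant 3, 279 in plant 5 and 264 in plant 9. The lowest libraries were TC10 plant 2 and TC15 plant 2, and the highest was TC15 plant 6. TC20 lay wholly above TC10, with its lowest value 1.31-fold above the highest of TC10, and TC15 overlapped both. Mean and SD were 120.5 ± 58.5 for TC10, 205 ± 90.0 for TC15 and 252 ± 34.7 for TC20, and neither neighbour in this order differed beyond the spread of TC15.

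ZTP50 was the steadiest of the members. It had 697 and 689 normalised reads in TC10 plants 2 and 4. It had 629.7, 529 and 753 in TC15 plants 2, 6 and 10, and 604, 583 and 684 in TC20 plants 3, 5 and 9. TC15 held both the lowest and the highest value and overlapped the other composts, and the extremes of all 8 libraries were 1.42-fold apart, against 3.73-fold for ZIP1 and 6.53-fold for ZIP4. Each TC20 value lay below each TC10 value, but the highest of TC20 (684) and the lowest of TC10 (689) were inside each other's counting intervals.

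On the log2(normalised reads + 1) scale, plants of the same compost differed by an SD of 0.49 for ZIP4, 0.56 for ZIP1 and 0.18 for ZTP50, where the median over the 4801 entries tested was 0.32. For ZTP50 this SD was low, since 19.0% of entries had a smaller one. For ZIP4 69.8% and for ZIP1 74.3% of entries had a smaller one. Differences between composts held 76.5% of the total sum of squares of ZIP4, 50.3% of that of ZIP1 and 16.8% of that of ZTP50, against a median of 28.2% over all entries.

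The question named by the series, whether expression changed over the 3 composts, was put to each of 4801 entries with an F test in limma. None of the 3 members passed an adjusted p of 0.05, and 0% of all entries did. ZIP4 had an adjusted p of 0.813 and ranked 31 of 4801 by p. It was the 1 member with an unadjusted value below 0.05, where 247 entries (5.14%) had one, close to the share that the threshold itself gives. ZIP1 ranked 489 and ZTP50 3556, with adjusted p of 0.813 and 0.921. On single values, the exact permutation F test over 560 allocations of the libraries gave p = 0.0286 for ZIP4, 0.182 for ZIP1 and 0.625 for ZTP50, two-sided by construction, and 0.00357 is the smallest p this design allows. These 3 values are not adjusted, and ZIP4 was known to differ before it was picked. On the recovered reads, edgeR and limma-voom passed none of the members. The likelihood ratio test of DESeq2, the test the submitters name, passed ZIP4 (DESeq2 adjusted p = 0.0257) and neither ZIP1 nor ZTP50. It passed 35 of 5147 entries, or 0.68%.

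The DESeq2 call of ZIP4 depended on single libraries. Its DESeq2 adjusted p was 0.0191 without TC10 plant 4, 0.0154 without TC20 plant 3 and 0.00569 without TC20 plant 9. Leaving out any of the other 5 ended the call, with DESeq2 adjusted p of 0.141 without TC10 plant 2, 0.0919 without TC15 plant 2, 0.109 without TC15 plant 6, 0.0669 without TC15 plant 10 and 0.134 without TC20 plant 5. Leaving out a TC10 library leaves 1 library of that compost, which is then assumed to vary like the others.

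In TC20 against TC10, ZIP4 was higher by 1.35 on the log2 scale (SE 0.40, 95% interval 0.41 to 2.29, limma adjusted p = 0.918), a 2.55-fold difference whose interval runs from 1.33 to 4.89-fold. ZIP1 was higher by 1.14 (SE 0.44, interval 0.11 to 2.16, limma adjusted p = 0.918). ZTP50 differed by -0.15 (SE 0.18, interval -0.58 to 0.27), an interval that includes no change. Limma passed 0 of the 3 members and 0% of all entries, and 2 members (ZIP1 and ZIP4) were below 0.05 without adjustment, as were 206 entries or 4.29%. DESeq2 passed 14 entries, 0.272%, and none of the members, with a DESeq2 adjusted p of 0.231 for ZIP4. TC20 lay wholly above TC10 in 9.31% of entries, ZIP4 and ZIP1 among them, and wholly below it in 9.23%, ZTP50 among them, so the lack of overlap of these pairs is common in these data. ZIP1 rests on TC10 plant 2: without it the difference was 0.63, without TC10 plant 4 it was 1.65. Its interval included 0 without TC10 plant 2 (-0.56 to 1.81), TC20 plant 5 (-0.17 to 2.28) or TC20 plant 9 (-0.14 to 2.34).

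In TC20 against TC15, ZIP4 was higher by 1.50 (SE 0.36, interval 0.66 to 2.34, limma adjusted p = 0.79), a 2.83-fold difference with an interval from 1.58 to 5.06-fold, and ranked 11 of 4801 by p. ZIP1 differed by 0.39 (SE 0.39, interval -0.53 to 1.31), and ZTP50 by -0.02 (SE 0.16, interval -0.40 to 0.36). The interval of ZIP1 leaves room for a change of either sign, its difference was 0.02 without TC15 plant 2 and 0.70 without TC15 plant 6, and that of ZTP50 runs from 0.759 to 1.28-fold. Limma passed no member and 1 entry of 4801, or 0.0208%. ZIP4 was again the 1 member below 0.05 without adjustment, beside 280 entries (5.83%). DESeq2 passed 11 entries (0.214%), and ZIP4 fell short with a DESeq2 adjusted p of 0.0593. TC20 lay wholly above TC15 in 6.98% of entries, and of the members in ZIP4.

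In TC15 against TC10, ZIP4 differed by -0.15 (SE 0.40, interval -1.09 to 0.79), ZTP50 by -0.13 (SE 0.18, interval -0.56 to 0.29) and ZIP1 by 0.75 (SE 0.44, interval -0.28 to 1.77). No member passed in limma, as 0% of entries did, and none was below 0.05 without adjustment, where 318 entries (6.62%) were. The intervals are wide with 2 TC10 libraries: that of ZIP1 runs from 0.826 to 3.42-fold, and that of ZIP4 from 0.47 to 1.73-fold. The ZIP1 difference was 0.24 without TC10 plant 2 and 0.44 without TC15 plant 6. It was 1.26 without TC10 plant 4 (interval 0.07 to 2.45) and 1.11 without TC15 plant 2 (interval 0.19 to 2.04), and those intervals lay above 0.

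**Figure D2:**
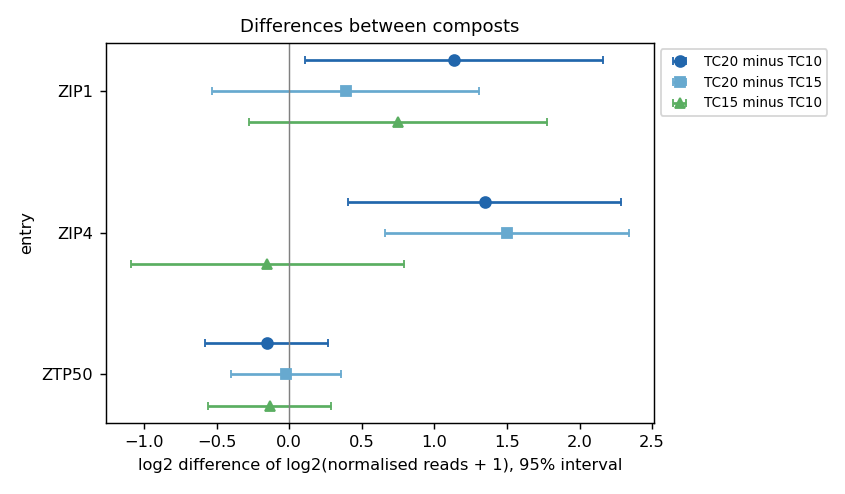
Log2 differences of the 3 members (y axis) in the 3 pairs of composts (symbols), with 95% intervals from limma (x axis). The intervals of ZIP4 in both pairs with TC20 lie above 0 (0.41 to 2.29 and 0.66 to 2.34), as does that of ZIP1 in TC20 minus TC10, and those of ZTP50 all include 0.

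The separation of ZIP4 was then set beside that of all entries, a measure chosen after its values were seen. For each entry the lowest TC20 value was divided by the highest value of the other composts. In 106 entries, or 2.21%, each TC20 library was above all others. The ratio of ZIP4, 1.77, was the widest of the 4801, followed by IPMKB, an inositol polyphosphate kinase, at 1.45 and by AIR3 at 1.4. With TMM scaling of the reads ZIP4 was also first, at 1.76. Gaps of this width were not peculiar to TC20 and ZIP4. Counting either direction in each of the 3 composts gave 13 gaps of at least 1.77-fold, that of ZIP4 included. An entry may count more than once among them. CSCL2 was one such entry, with TC10 libraries 2.81-fold above the rest.

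**Figure D3:**
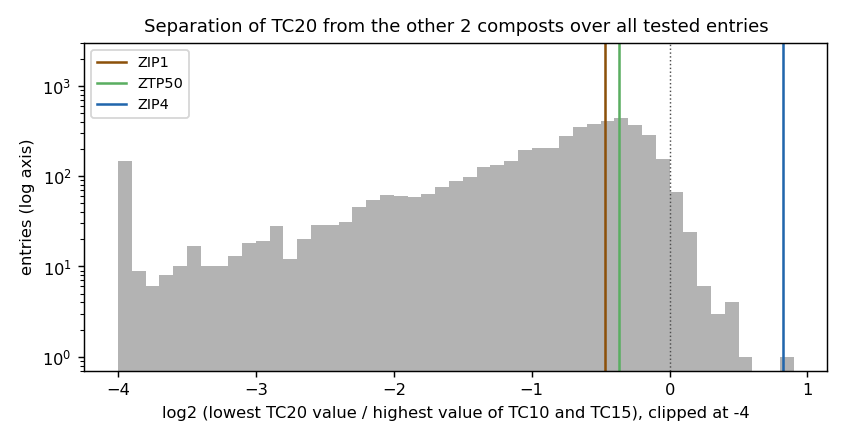
Number of entries (y axis, log axis) by the log2 ratio of the lowest TC20 value to the highest value in TC10 and TC15 (x axis), for 4801 entries, with lines at the members; ratios below the axis range are in its leftmost bar, and values right of the dotted line have all TC20 libraries above all others. ZIP4 stands alone at 0.82, while ZIP1 (-0.47) and ZTP50 (-0.37) lie in the bulk.

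Ratios of members within a library do not depend on how libraries were scaled. They were taken of read counts and say nothing of the levels of one transporter against another, since transcript lengths were not used. ZIP4 reads per ZTP50 read were 0.133 and 0.157 in TC10 plants 2 and 4, and 0.164, 0.195 and 0.0902 in TC15 plants 2, 6 and 10. They were 0.327, 0.76 and 0.279 in TC20 plants 3, 5 and 9. This ratio was higher in each TC20 library than in each other one. That follows from the 1.77-fold gap of ZIP4, since ZTP50 spanned only 1.42-fold over all libraries, and it is no further test. ZIP4 reads per ZIP1 read overlapped, with 1.17 and 0.667 in TC10, 0.902, 0.35 and 0.33 in TC15 and 0.929, 1.59 and 0.724 in TC20, so the 2 transporters did not move in a fixed proportion.

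The title of the series concerns zinc in the plant, and the members were compared with the zinc of the same root. TC10 roots held 491 and 637 ug/g in plants 2 and 4, and TC15 roots 373, 565 and 1075 ug/g in plants 2, 6 and 10. TC20 roots held 215, 277 and 174 ug/g in plants 3, 5 and 9. The roots lowest in zinc were all of TC20, so root zinc and compost cannot be told apart across composts. ZIP4 was high in these roots, and its slope per zinc doubling was -0.73 (95% interval -1.27 to -0.20, limma adjusted p = 0.918). Its Pearson r with log2 zinc was -0.75 (exact permutation p = 0.0295, adjusted over 12 relations 0.354) and its Spearman rho -0.738 (exact permutation p = 0.0458, adjusted 0.46). Neither passed after adjustment. Without TC20 plant 9 and TC15 plant 10, which lay farthest from the middle of the zinc range, the exact permutation p was 0.101 (r = -0.714).

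Within composts, ZIP4 showed no such order. In TC20 it was highest in plant 5, the root of that compost with most zinc (443 normalised reads at 277 ug/g, against 191 at 174 ug/g in plant 9). In TC15 it was lowest in plant 10, the root with most zinc (67.9 at 1075 ug/g), and equal within counting error in plants 2 and 6, at 373 and 565 ug/g. In TC10 it was 108 at 637 ug/g in plant 4 and 92.4 at 491 ug/g in plant 2. As deviations from compost means r was -0.0247, and with compost as a covariate the slope was -0.02 (SE 0.38, interval -0.93 to 0.89), an interval that also holds the slope found without the covariate.

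ZIP1 and ZTP50 did not pass against zinc. ZIP1 had a slope of -0.18 (SE 0.26, interval -0.78 to 0.41) and r = -0.239 (exact permutation p = 0.562), with r = 0.504 within composts. ZTP50 had a slope of 0.06 (SE 0.08, interval -0.13 to 0.25) and r = 0.335 (exact permutation p = 0.415), with r = 0.33 within composts. Of the 3 members, ZIP4 alone was below 0.05 without adjustment on the limma slope, and 204 entries (4.25%) were. Leaving out TC15 plant 10 ended this, with a ZIP4 slope of -0.75 whose interval (-1.51 to 0.00909) included 0. With limma 0% of entries passed against zinc, arsenic, lead or height.

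Arsenic and lead, the other metals measured in the roots, moved together (r = 0.867 over the 8 plants) and only partly with zinc (r = 0.58 for arsenic and 0.269 for lead). Per doubling of arsenic, ZIP4 had a slope of -0.27 (interval -1.09 to 0.54), ZIP1 of 0.15 (interval -0.50 to 0.80) and ZTP50 of 0.09 (interval -0.11 to 0.29). The correlations of ZIP4, ZIP1 and ZTP50 with arsenic were -0.258, 0.186 and 0.439, with exact permutation p of 0.525, 0.661 and 0.28. For ZIP4 single libraries set the size: the slope was -1.06 (interval -2.17 to 0.05) and r -0.647 without TC15 plant 2, and -0.0168 and -0.0153 without TC15 plant 10. Per doubling of lead the slopes were 0.09 for ZIP4 (interval -0.67 to 0.85), 0.10 for ZIP1 (interval -0.50 to 0.70) and 0.05 for ZTP50 (interval -0.14 to 0.24), with r of 0.0932, 0.129 and 0.274 and exact permutation p of 0.796, 0.77 and 0.527. No member was below 0.05 without adjustment against either metal, where 5.1% of entries were for arsenic and 6.87% for lead. For ZIP1 the sign rests on TC15 plant 2, the root with least arsenic (36 ug/g) and lead (10 ug/g): without it r was -0.238 with arsenic and -0.602 with lead.

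Height ranged from 51 to 91 cm among the 8 plants. The tallest, TC20 plant 5 at 91 cm, had the most ZIP4, but the next tallest, TC15 plant 2 at 89 cm, had 104 normalised reads, within the range of the short TC10 plants. The slope per 10 cm was 0.25 for ZIP4 (interval -0.14 to 0.64), 0.05 for ZIP1 (interval -0.29 to 0.39) and -0.04 for ZTP50 (interval -0.14 to 0.07). The correlations with height were 0.457, 0.115 and -0.354 for ZIP4, ZIP1 and ZTP50, with exact permutation p of 0.26, 0.778 and 0.385. Without TC20 plant 5 that of ZIP4 was 0.0497. No member was below 0.05 without adjustment in limma, where 4.71% of entries were. Over the 12 relations of members with measures, the lowest adjusted p was 0.354.

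**Figure D4:**
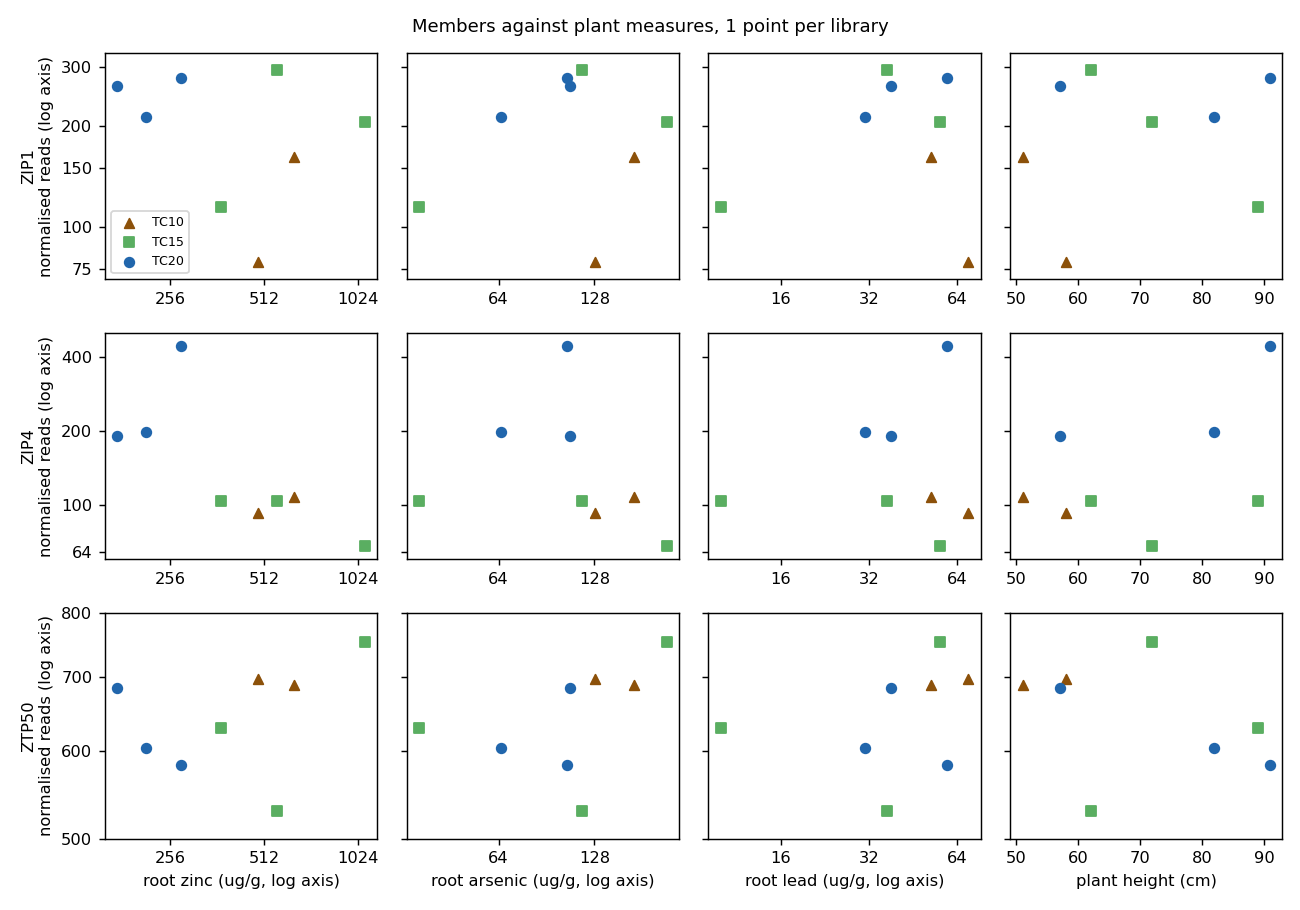
Normalised reads of each member (rows, log axes with a range of their own) against root zinc, arsenic and lead (log axes) and plant height (columns); each point is 1 library, with symbols for the compost. The 3 TC20 points of ZIP4 sit at the low end of zinc (174 to 277 ug/g) and above all others, and are spread over the range of height (57 to 91 cm).

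The members did not follow each other beyond the spread of 8 libraries. ZIP1 with ZIP4 had r = 0.488 (exact permutation p = 0.221) and rho = 0.429. ZIP1 with ZTP50 had r = -0.452 (exact permutation p = 0.265) and rho = -0.714 (exact permutation p = 0.0576), and ZIP4 with ZTP50 r = -0.45 (exact permutation p = 0.268) and rho = -0.571. Adjusted over the 3 pairs, the lowest exact permutation p was 0.173, for the rho of ZIP1 with ZTP50. Each r was computed on the same 8 libraries and normalisation.

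By Pearson r of log2 values over the 8 libraries, the entries most like ZIP4 among 3992 with a mean of at least 50 normalised reads were THO7B (r = 0.918), a subunit of the THO complex of mRNA export, AB7I (r = 0.916), a member of the ABC protein family, and CIPK8 (r = 0.876), a kinase that partners calcineurin B-like calcium sensors. THO7B had 279 to 286 normalised reads in TC10, 249.7 to 309 in TC15 and 338 to 404 in TC20. Its range was thus narrower than that of ZIP4. Among those most like ZIP1 were PUS4 (r = 0.929), named as a pseudouridine synthase, and CCI1 (r = 0.923). Most like ZTP50 were YIPL7 (r = 0.921), a yippee-like protein, CAR4 (r = 0.874), a C2-domain protein of abscisic acid signalling, and BAG5 (r = 0.86), a chaperone regulator. PUS4 had 88.6 to 120.4 normalised reads in TC10, 125 to 171 in TC15 and 131 to 167 in TC20. These are among the highest of 3992 correlations over 8 points that share libraries and scaling, and they are a description.

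Other genes of zinc handling were searched by name. Of 15 further ZIP family names, iron transporters IRT1 to IRT3 included, none had an entry, and they were not analysed here. Of 21 names searched under zinc export and vacuolar loading, 6 had an entry (HMA2, MTP1, MTPC4, ZIFL1, PCR2 and PCR10). Under zinc sensing and chelation 3 of 18 had one (YSL1, YSL2 and YSL3). Under divalent metal uptake by other families 5 of 13 had one, of which 4 were tested (NRAM2, NRAM3, NRAM6 and OPT3). These are headings of the search, and a gene under one need not have that role. No gene of these lists passed in limma in either direction in any pair or slope, with adjusted p of at least 0.435. In TC20 against TC15 the median log2 difference was -0.01 over the export list, -0.71 over the YSL genes and 0.25 over the uptake list, against 0.0116 over all entries. In TC20 against TC10 it was -0.17, -0.39 and -0.07 in the same order, against 0.00152 over all entries.

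ZIFL1, a major facilitator related to the vacuolar ZIF1 that loads the zinc chelator nicotianamine in Arabidopsis, had 4339 to 4579 normalised reads in TC10, 4701 to 6832 in TC15 and 2647 to 4265 in TC20. Each TC20 library was below all others, as in 69 of 4801 entries (1.44%), but the highest of TC20 (4265) was close to the lowest of TC10 (4339). The log2 difference of ZIFL1 from TC15 was -0.57 (SE 0.24, limma adjusted p = 0.79). From TC10 it was -0.31, with an interval (-0.94 to 0.32) that includes 0. MTP1, which moves zinc into the vacuole, had 900.4 to 1208 in TC10, 1259 to 1487 in TC15 and 651 to 1186 in TC20, so TC20 lay wholly below TC15, as in 5.89% of entries, and overlapped TC10. MTPC4, a cation diffusion facilitator named after its values were seen, had 169 to 221 in TC10, 212 to 230.4 in TC15 and 231 to 262 in TC20. Each TC20 library was thus above all others, as in 2.21% of entries. The lowest TC20 value (230.999) and the highest TC15 value (230.418) were nearly equal, unlike those of ZIP4. The log2 difference of MTPC4 from TC15 was 0.16 (SE 0.17, limma adjusted p = 0.861). HMA2, a zinc-exporting ATPase of the root vasculature, had 529.8 to 728 in TC10, 386 to 1289 in TC15 and 373 to 1033 in TC20, and overlapped throughout. PCR2, a zinc exporter of the plasma membrane in Arabidopsis, had 175 to 761 in TC10, 23.3 to 126 in TC15 and 74.0 to 736 in TC20.

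YSL3, which carries metal chelates with nicotianamine along the vasculature, had 192 to 259 in TC10, 249.7 to 295 in TC15 and 109 to 218 in TC20. YSL2 had 128 to 167 in TC10, 183 to 247 in TC15 and 80.3 to 170.5 in TC20, and YSL1 118 to 131, 84.8 to 206 and 64.1 to 112 in the same order. All 3 were lower in TC20 than in TC15 by their fitted means, and no YSL gene passed. For YSL3 and YSL2, TC20 lay wholly below TC15, which was so in 5.89% of all entries. OPT3, which serves iron signalling between shoot and root, had 290.3 to 1132 in TC20 and overlapped the other composts. The NRAMP family entries NRAM2, NRAM6 and NRAM3, transporters of manganese and iron, had 476 to 597, 253 to 607 and 225 to 310.4 in TC20 and overlapped TC15 as well (313 to 583, 209 to 419 and 147 to 369.6).

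**Figure D5:**
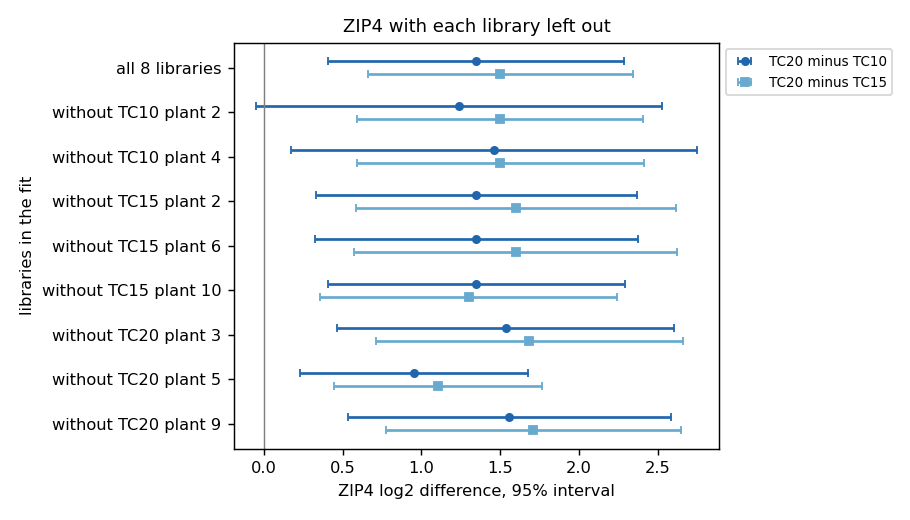
ZIP4 log2 differences in TC20 minus TC10 and TC20 minus TC15 (x axis, with 95% limma intervals) with all 8 libraries and with each left out (y axis). The difference from TC10 stays between 0.95 and 1.56 and that from TC15 between 1.10 and 1.71, and both are smallest without TC20 plant 5.

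Without TC20 plant 5, the library with the highest ZIP4 value, ZIP4 was higher in TC20 by 0.95 than in TC10 (interval 0.23 to 1.68) and by 1.10 than in TC15 (interval 0.44 to 1.77). Its slope on zinc was then -0.57 (SE 0.12) and its r with zinc -0.94. Without TC10 plant 2 the interval of the difference from TC10 ran from -0.05 to 2.53 and so included 0. With both TC10 plant 2 and TC20 plant 9 left out, the libraries least like the others, ZIP4 differed by 1.45 from TC10 and by 1.71 from TC15, and ZIP1 differed by 0.59 from TC10. The limma call did not change in any of these fits: no member passed over all entries.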

How the data were processed

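Stranded libraries were made from total root RNA, per the labels' protocols. The submitters' processing notes name FastQC, Trim Galore, kallisto and DESeq2. Tool versions, the transcript reference and how protein names were assigned: not given in the sources used here. No sequences or coordinates were used. The deposited signal values are reads that the authors divided by 1 factor per library: 100% of values were whole multiples of 1 read within 0.001 of a read, and reads were recovered on that basis. Entries missing from a file were taken as 0.

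The series text names a DESeq2 likelihood ratio test, but since the deposited signal is normalised, limma 3.58.1 (R 4.3.3, empirical Bayes trend, log2(value + 1), which understates changes of low entries) was the main test. It was fitted to the 4801 of 5164 entries that reached 10 in 2 or more libraries, all 3 members included, with Benjamini-Hochberg adjustment and a threshold of 0.05. Slopes are per doubling of a metal or per 10 cm of height. DESeq2 1.42.0 (no prior filter), limma-voom and edgeR 4.0.16 (quasi-likelihood) were run on recovered reads. Exact permutation tests used Python 3.11.15 and scipy 1.17.1. The fits were tested on simulated data. Other pseudocounts, filters, scalings, covariates and left-out libraries were tried. Members, lists and tests were chosen with earlier results of these data known. Genes named beside the members were, by rule, the 3 entries most like each member (1 of those for ZIP1 is not reported here) and up to 4 list members with the highest mean. IPMKB, AIR3, CSCL2 and MTPC4 were named after their values were seen.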

Additional observations from a re-analysis of the deposited data

How the results depend on the processing

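Of 570 alternative values of the members, 538 were counted as unchanged in direction and side of the threshold, and 31 changed sign. For correlations with libraries left out or within composts, this count compares the sign only. The DESeq2 fits with single libraries left out, most of which ended the ZIP4 call, are not among the 570. Sign changes were found in ZIP1 and ZTP50 values and in the smaller ZIP4 values, for none of which the threshold was passed, and the cause was not tested. No member passed in limma under any filter, pseudocount (0.1 or 10), scaling or left-out library. With DESeq2 on recovered reads 1 member passed across the composts (ZIP4), and 0 to 1 when single libraries were left out. With compost as a covariate the slope of ZIP1 was 0.51 on zinc and -0.22 on height, and that of ZIP4 on lead -0.0145. With untransformed lead the ZIP1 slope was -0.0721 per SD of lead. In the fit without TC10 plant 2 and TC20 plant 9, chosen after seeing the data, the ZIP1 slope on height was -0.0233. By Spearman, ZIP1 gave -0.143 with arsenic and -0.143 with lead, and ZIP4 -0.19 with lead. Without the 2 farthest plants, ZIP1 gave r = -0.344 with arsenic and -0.218 with lead. Within composts, r was 0.504 for ZIP1 with zinc, -0.574 for ZIP1 with height and -0.0261 for ZIP4 with lead.

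With each library left out in turn, the log2 difference of ZTP50 in TC20 against TC15 ran from -0.146 to 0.108 and that of ZIP4 in TC15 against TC10 from -0.261 to 0.0492. Slopes ran from -0.00974 to 0.127 for ZTP50 on zinc, from -0.281 to 0.25 for ZIP1 on arsenic, from -0.919 to 0.367 for ZIP1 on lead, from -0.362 to 0.222 for ZIP4 on lead and from -0.0576 to 0.179 for ZIP1 on height. Pearson r ran from -0.238 to 0.446 for ZIP1 with arsenic, from -0.602 to 0.67 for ZIP1 with lead, from -0.189 to 0.402 for ZIP1 with height, from -0.218 to 0.241 for ZIP4 with lead and from -0.0475 to 0.682 for ZTP50 with zinc.

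No paired analysis was made, because the labels do not say that plants with equal numbers in different composts are matched. The composts compared also share fewer than 2 plant numbers among the libraries used. At 77 to 112 reads per library, counting error alone gave ZIP4 a coefficient of variation of 9.81% in TC10 and 10.6% in TC15. The spread between plants was 22.3% in TC15. In TC10 it was 10.9%, close to counting error, and the 2 values lay within each other's counting intervals.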
